A study of Homo sapiens with 15 samples.

Results

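The 10 genes described here encode parts of the NF-κB pathway, and they were taken by symbol: 3 subunits of the transcription factor (RELB, NFKB2 and NFKB1), 3 proteins of the IκB family (NFKBIZ, NFKBIE and NFKBIA) and 4 other genes known as NF-κB targets, some of which feed back on the pathway (TNFAIP3, ICAM1, BIRC3 and TNFAIP2). They are 10 of the 58219 genes in the RNA-Seq table, and all 10 were among the 17599 genes that passed the filter on low counts. Messenger RNA was measured in BEAS-2B cells, an immortalized human bronchial epithelial line, which were grown without serum in bronchial epithelial medium on collagen-coated plates in every condition. Fine particulate matter (PM2.5), extracted in water from air filters of Beijing, was added at 1 µg/cm2 (PM_24h_1dose) or 30 µg/cm2 (PM_24h_30dose) for 24 h, and control cells (Control_24h) received fresh medium alone. In the repeated protocol, cells received 1 µg/cm2 each day (PM_7d_1dose) or medium alone (Control_7d) and were collected on day 7. The labels count 7 daily exposures and the methods of the study count 1 fewer, and the cells of the repeated protocol were plated at a lower density. Each protocol was run in 3 separate experiments, which gave 15 libraries, all from 1 cell line.

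NF-κB is a family of dimeric transcription factors that inhibitors of the IκB family hold in the cytoplasm of resting cells. In the canonical pathway, cytokines, microbial products or stress activate the IKK kinases, IκBα is degraded, and dimers that contain the product of NFKB1 enter the nucleus. In the alternative pathway, the precursor made by NFKB2 is processed and acts with RELB. Several of the genes that NF-κB switches on encode its own inhibitors and subunits, and in airway epithelium its targets include cytokines, chemokines and adhesion molecules.

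DNA matching the κB consensus, the 10-base site bound by NF-κB, is shown for the members that hold a match near a transcription start, because such sites are where NF-κB binds at its target genes. Windows of 300 bases, from 250 before to 50 after each start, were taken from RefSeq (GRCh38.p14). Both strands were searched for GGGRNNYYCC, where R is A or G, Y is C or T and N is any base. A match is in capitals, with 10 bases on either side, and every line is written 5′ to 3′ on the strand of the gene:
NFKB1, chr4:102501300-102501329: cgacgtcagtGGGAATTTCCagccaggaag
NFKB2, chr10:102394461-102394490: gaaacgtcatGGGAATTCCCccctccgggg
NFKB2, chr10:102394490-102394519: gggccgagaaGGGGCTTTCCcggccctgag
NFKB2, chr10:102395519-102395548: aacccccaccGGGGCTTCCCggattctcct
NFKB2, chr10:102395674-102395703: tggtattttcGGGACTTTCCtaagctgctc
NFKBIA, chr14:35404811-35404840: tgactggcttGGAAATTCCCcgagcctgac
NFKBIZ, chr3:101827757-101827786: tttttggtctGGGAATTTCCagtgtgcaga
NFKBIZ, chr3:101849265-101849294: gcgcgctgtcGGGGTTTCCCggtgaagggc
TNFAIP3, chr6:137867182-137867211: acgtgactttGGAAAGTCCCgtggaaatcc
TNFAIP3, chr6:137867194-137867223: aaagtcccgtGGAAATCCCCgggcctacaa
BIRC3, chr11:102317275-102317304: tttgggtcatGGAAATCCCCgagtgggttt
BIRC3, chr11:102317339-102317368: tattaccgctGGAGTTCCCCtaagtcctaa

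The matches of NFKBIA, TNFAIP3 and BIRC3 lie on the strand opposite to the gene. Read on the matching strand, NFKB1, the first match of NFKBIZ and NFKBIA hold the same 10 letters, GGGAATTTCC. One match of NFKB2 shares GGGACTTTCC with one of TNFAIP3, and the other match of TNFAIP3 shares GGGGATTTCC with one of BIRC3. The first match of NFKB2 overlaps one on the opposite strand that is shifted by 1 base and is not shown. In the order shown within each gene, the matches begin 49 bases before the start in NFKB1, 81 in NFKBIA, 67 and 55 in TNFAIP3, 199 and 135 in BIRC3 and, at different starts, 223 and 239 in NFKBIZ. NFKB2 has them 107 and 78 bases before 1 start and 176 and 21 before another. Of the 12 windows of the members, 8 held a match (66.7%), against 11.3% of all 35116 windows and 13.3% of the 17504 windows of genes tested. The members were chosen as genes of the NF-κB pathway and its known targets, so this contrast describes them and is no test. Some genes count more than once: NFKB2 had 3 windows, 2 with a match, and NFKBIZ had 2 windows, 2 with a match. The single windows of TNFAIP2 and ICAM1 held no match to this pattern, and RELB and NFKBIE had no window. Sites bound by NF-κB that depart from the pattern would be missed, so a window without a match may still hold one.

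Library totals were 21460981 to 34724765 counted reads (median 29243177), and the lowest count of any member in any library was 114, for NFKBIZ. In the 24-h protocol, the libraries of experiment 2 stood apart in all 3 conditions: the SD over genes of the log2 difference to the other libraries of their condition was 0.722 to 0.971, against 0.4 to 0.433 between experiments 1 and 3 and 0.343 to 0.465 in the repeated protocol. Values without experiment 2 are therefore given where they change a call or reverse, and for some but not all of those that differ by over 1.5 times. All 9 epithelial markers on the list were tested, and their summed level was 2200 to 2940 CPM in 24-h control cells against 1040 to 1560 CPM after 30 µg/cm2, where KRT5, KRT19, KRT8 and CDH1 were called lower. Of the immune markers, PTPRC, CD68 and LYZ had 3 counts or fewer in every library. The 6 on the list summed to 10.9 to 12.9 CPM in 24-h control cells, 14.5 to 23.4 CPM after 1 µg/cm2 and 2.56 to 17.9 CPM after 30 µg/cm2, nearly all of it from CD14, the only one tested. CD14 was not called against control (-0.60 at 30 and 0.58 at 1 µg/cm2), and between the concentrations it was -1.18 (edgeR, adjusted p = 0.198), or -1.48 and called lower with the replicate block (edgeR, adjusted p = 0.0184). The summed level of 3 endothelial markers reached at most 0.345 CPM. Mesenchymal markers summed to 477 to 747 CPM in 24-h control cells and 345 to 568 CPM after 30 µg/cm2, with none of 7 called. The summed epithelial level was thus lower at 30 µg/cm2, while the mesenchymal sums overlapped those of control cells. The part of the epithelial, mesenchymal and CD14 values in the changes of the members was not tested. In bulk RNA, fewer cells that express a gene and less RNA of that gene per cell cannot be told apart.

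Levels are given as CPM, the counts of a gene scaled to a common library size after TMM normalization. Adjusted for exon length, NFKBIA was the most abundant member in 24-h control cells, at a mean of 22.4 CPM per kb, followed by TNFAIP2 at 18.5, ICAM1 at 11.4 and NFKB2 at 11.2 CPM per kb. RELB had 3.32, TNFAIP3 2.23 and NFKBIZ 1.25 CPM per kb. The other members, NFKBIE, NFKB1 and BIRC3, had between 6.7 and 7.96 CPM per kb. After 30 µg/cm2, RELB reached 13.6 CPM per kb, above NFKB1 at 9.95 and below NFKB2 at 17.3.

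**Figure D1:**
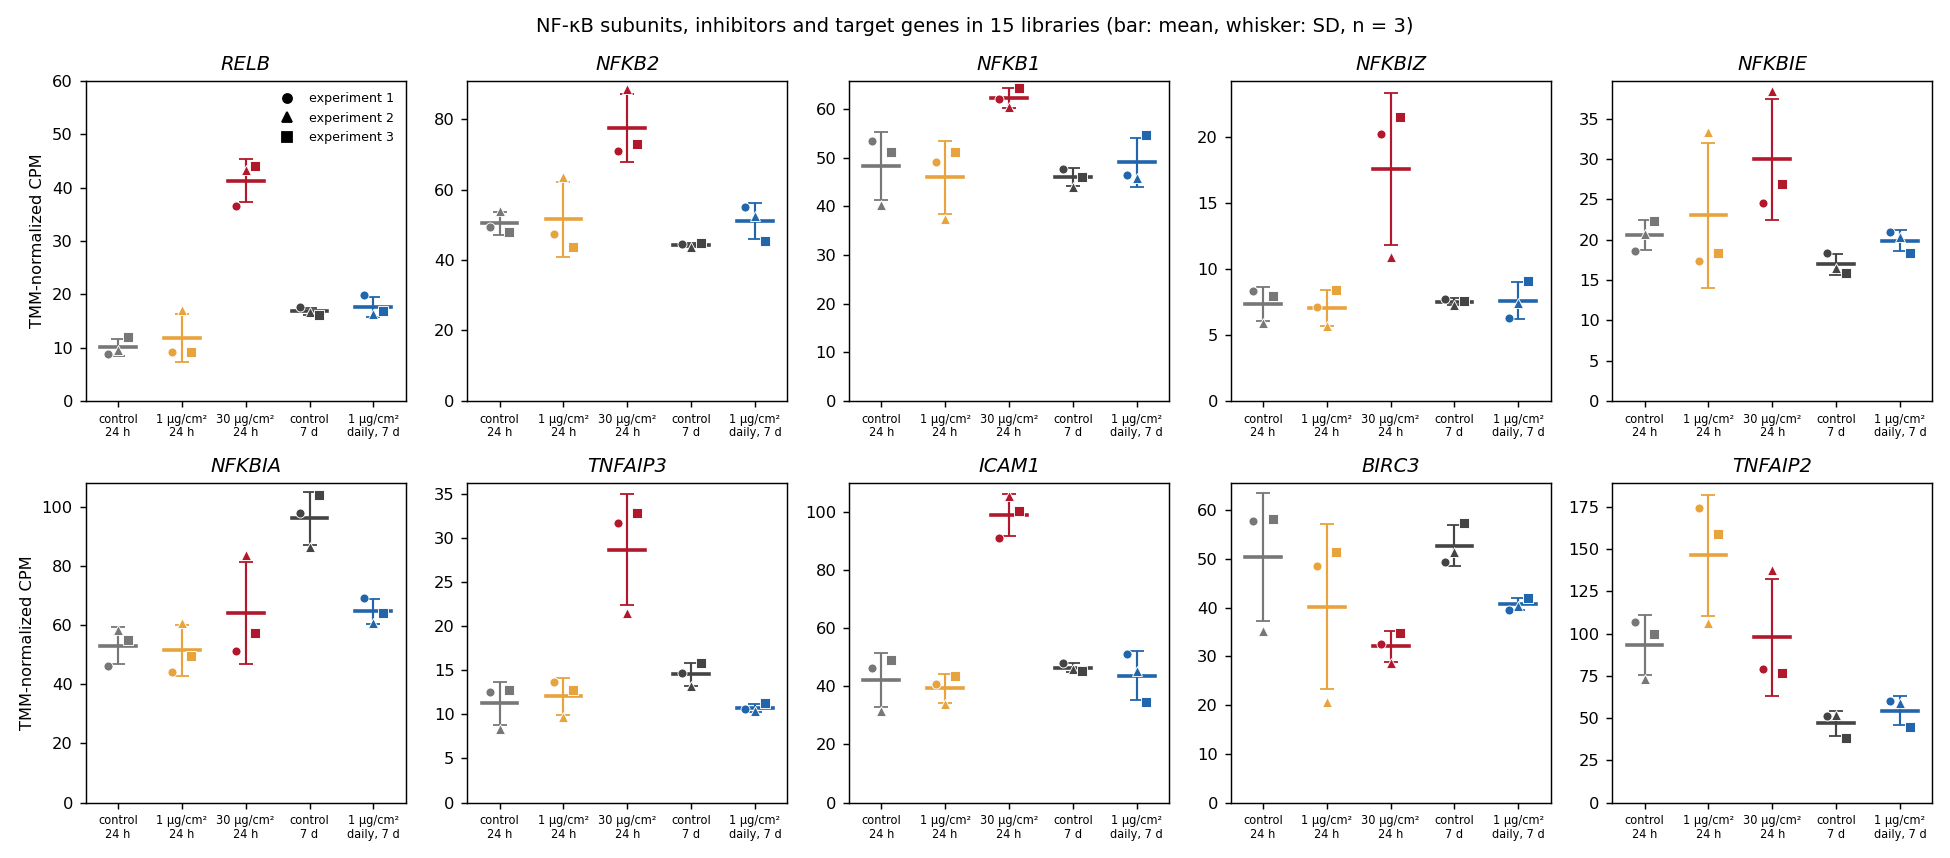
Level of each of the 10 genes in CPM (vertical axes from 0) in the 5 conditions, with 1 symbol per library shaped by experiment, a bar at the mean and whiskers of 1 SD (n = 3). RELB, NFKB2, NFKB1, NFKBIZ, TNFAIP3 and ICAM1 were highest in all 3 libraries at 30 µg/cm2, while by mean NFKBIA was highest in 7-day control cells and TNFAIP2 at 1 µg/cm2 for 24 h.

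A single 24-h exposure to 30 µg/cm2 raised 5 of the 10 genes: RELB, TNFAIP3, NFKBIZ, ICAM1 and NFKB2. None of the 10 was called lower. A gene was called when edgeR's quasi-likelihood test gave a Benjamini-Hochberg adjusted p under 0.05 and the absolute log2 fold-change was at least 0.6. Among all genes tested, 8.07% were called in this comparison, 3.82% higher and 4.24% lower. The median log2 fold-change of the 10 genes was 0.58, against 0.03 over all genes. Because the genes were chosen with earlier results of these data known, this contrast describes them and is no test of the pathway. Spans of the genes are given in GRCh38 as in the deposited table, and none overlaps another gene tested.

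RELB (ENSG00000104856.13, chr19:45001430-45038198, plus strand), the subunit that pairs with the NFKB2 product in the alternative pathway, showed the largest response. Its level was 8.88, 9.46 and 11.9 CPM in control cells of experiments 1 to 3 and 36.6, 43.3 and 44 CPM after 30 µg/cm2. The groups did not overlap, the lowest exposed library being above the highest library of every other condition. The log2 fold-change was 2.03 ± 0.218 (SE, n = 3), or 4.09-fold, with an adjusted p of 7.4e-05 in edgeR. Within experiments 1, 2 and 3 the log2 ratio was 2.04, 2.19 and 1.88.

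NFKB2 (ENSG00000077150.18, chr10:102394110-102402529, plus strand), which encodes the p100 precursor, was measured at 49.4, 53.9 and 47.8 CPM in control cells and at 70.9, 88.4 and 72.9 CPM after exposure, again without overlap. Its log2 fold-change of 0.62 ± 0.145 (SE, n = 3) lay just past the threshold, with an adjusted p of 0.0144 in edgeR. The call was lost, with a value of 0.55, without experiment 2, and when single libraries were left out (0.59 without control 1, 0.57 without control 3 and 0.51 without exposed library 2). NFKB1 (ENSG00000109320.11, chr4:102501329-102617302, plus strand), which encodes p105 and p50 of the canonical dimers, had 53.4, 40.3 and 51.2 CPM in control cells and 62, 60.3 and 64.4 CPM after exposure. All 3 exposed libraries were above all 3 controls, but the log2 fold-change of 0.37 (95% interval 0.07 to 0.67) did not pass the test (edgeR, adjusted p = 0.124). Without experiment 2 it was 0.26 (edgeR, adjusted p = 0.0356), below the fold threshold.

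NFKBIZ (ENSG00000144802.11, chr3:101827991-101861022, plus strand) encodes IκBζ, a nuclear member of the family that works as a cofactor at a subset of target genes. Its level was 8.28, 5.89 and 7.9 CPM in control cells and 20.2, 10.9 and 21.5 CPM after 30 µg/cm2. It rose in every experiment, and the library of experiment 2 was the lowest in both groups. The log2 fold-change was 1.25 ± 0.246 (SE, n = 3) with an adjusted p of 0.00523 in edgeR, and 1.35 without experiment 2.

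NFKBIE and NFKBIA, the IκB family members here whose products retain NF-κB in the cytoplasm, did not pass the test at 30 µg/cm2. NFKBIE (IκBε; ENSG00000146232.15, chr6:44258166-44265788, minus strand) had 18.6, 20.7 and 22.3 CPM in control cells and 24.5, 38.5 and 26.9 CPM in exposed cells, with the highest exposed value in experiment 2. The exposed libraries lay above every control, at a log2 fold-change of 0.55 ± 0.227 (SE, n = 3; edgeR, adjusted p = 0.159), which became 0.32 without experiment 2. NFKBIA (ENSG00000100906.10, chr14:35401511-35404749, minus strand), encoding IκBα, the inhibitor best known as an early NF-κB target, had 46.2, 58.2 and 54.8 CPM in control cells and 51.2, 83.6 and 57.4 CPM in exposed cells. Its groups overlapped, and the log2 fold-change was 0.27, with a 95% interval from -0.11 to 0.65 that leaves room for either direction. The value rests mainly on experiment 2, since it was 0.09 without that experiment and 0.03 without exposed library 2 alone.

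TNFAIP3 (ENSG00000118503.14, chr6:137867188-137883312, plus strand), which encodes A20, a ubiquitin-editing enzyme that shuts down signaling upstream of the IKK complex, changed by nearly the same factor in each experiment. Control cells had 12.6, 8.38 and 12.8 CPM and exposed cells 31.7, 21.5 and 32.8 CPM. The log2 ratios within experiments 1, 2 and 3 were 1.33, 1.35 and 1.36, although the levels of experiment 2 were the lowest of their condition. On average the log2 fold-change was 1.35 ± 0.2 (SE, n = 3), or 2.54-fold, with an adjusted p of 0.000765 in edgeR.

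ICAM1 (ENSG00000090339.8, chr19:10270835-10286615, plus strand), an adhesion molecule to which leukocytes bind, had 46.3, 31.4 and 48.9 CPM in control cells and 91.1, 106 and 100 CPM after 30 µg/cm2. Exposed libraries were all above the control range, and the log2 ratio was 1.75 in experiment 2, against 0.98 and 1.04 in experiments 1 and 3. For the 3 experiments together, the log2 fold-change was 1.23 ± 0.176 (SE, n = 3; edgeR, adjusted p = 0.000595) and 0.99 without experiment 2.

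BIRC3 (ENSG00000023445.13, chr11:102317450-102339403, plus strand), which encodes the ubiquitin ligase cIAP2 that acts at TNF receptors and in the alternative pathway, was the member that lay lower in every exposed library. Its level was 57.8, 35.2 and 58.1 CPM in control cells and 32.6, 28.7 and 34.9 CPM after exposure. The log2 fold-change of -0.65 ± 0.269 (SE, n = 3) did not pass the test in edgeR, with an adjusted p of 0.153. When the experiment was added as a replicate block it was -0.60 with an adjusted p of 0.0111 and passed, as it did without experiment 2 (-0.80, adjusted p = 3.3e-06, edgeR).

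TNFAIP2 (ENSG00000185215.8, chr14:103123442-103137439, plus strand), a TNF-induced gene whose product acts in the outgrowth of membrane tubes, moved in opposite directions between experiments. At 30 µg/cm2 its level was 78.8, 138 and 76.5 CPM, against 107, 72.9 and 99.8 CPM in the controls. The log2 ratio was thus 0.92 in experiment 2 and -0.44 and -0.38 in experiments 1 and 3. Over all experiments the log2 fold-change was 0.07 (95% interval -0.47 to 0.60), and without experiment 2 it was -0.43 (adjusted p = 0.0223, edgeR), below the fold threshold.

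Exposed libraries were above all control libraries for 7 of the 10 genes, and below them for 1. Over all genes tested, 11.7% were higher in all 9 pairs of an exposed and a control library and 11.1% were lower in all 9. With the replicate block, which removes differences shared by an experiment, the same 5 genes were called higher and BIRC3 lower, while 15.2% of all genes were called. A fit of the 6 compared libraries alone called 3 members, RELB, TNFAIP3 and ICAM1, and 360 of all genes tested. The adjusted p in edgeR was then 0.0835 for NFKB2 and 0.0843 for NFKBIZ.

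**Figure D2:**
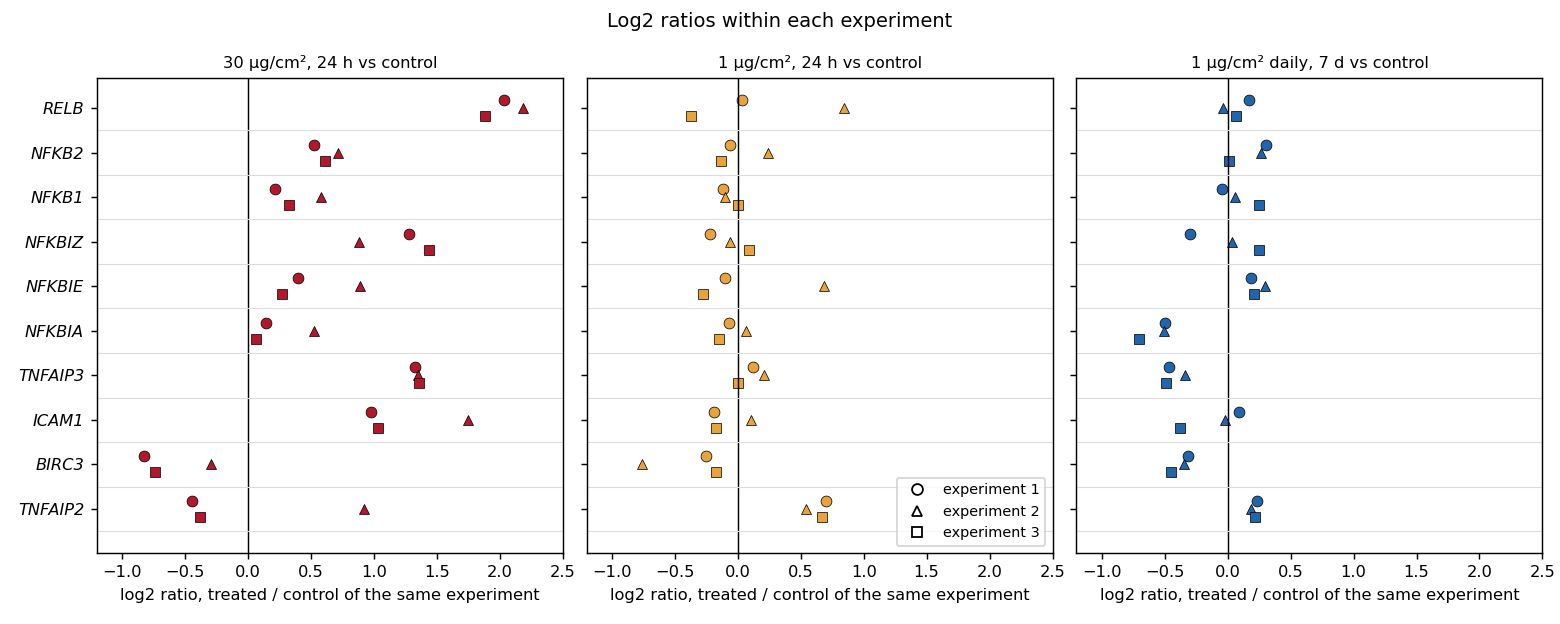
Log2 ratio of the exposed to the control library of the same experiment for each gene, with circles for experiment 1, triangles for experiment 2 and squares for experiment 3, in 3 panels for 30 µg/cm2 for 24 h, 1 µg/cm2 for 24 h and 1 µg/cm2 daily. At 30 µg/cm2, 8 genes were above 0 in 3 of 3 experiments, BIRC3 was below 0 in all of them and TNFAIP2 was mixed.

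A single exposure to 1 µg/cm2 for 24 h changed none of the 10 genes by the test in edgeR, where 0.0625% of all genes tested were called and 3.03% had an unadjusted p under 0.05. DESeq2 also called 0 of the 10. The median log2 fold-change of the 10 genes was -0.01, against 0.01 over all genes. The controls of this comparison are the same libraries as those used for 30 µg/cm2.

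TNFAIP2 was the 1 member with an unadjusted p under 0.05 in this comparison. Its level was 174, 106 and 159 CPM after 1 µg/cm2, against 107, 72.9 and 99.8 CPM in control cells, so that it was higher in each experiment while the groups overlapped by 1 pair of libraries. The log2 fold-change was 0.65 ± 0.25 (SE, n = 3; edgeR, adjusted p = 1), with a 95% interval of 0.11 to 1.19. It passed the test without experiment 2, at 0.70 with an adjusted p of 0.00584 in edgeR.

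In RELB, NFKBIE and BIRC3, the library of experiment 2 lay farthest from its control. RELB had 9.11, 17.1 and 9.2 CPM after 1 µg/cm2, and its log2 fold-change of 0.22 became -0.17 without experiment 2. NFKBIE had 17.3, 33.4 and 18.4 CPM, and its value of 0.16 became -0.18. BIRC3 had 48.5, 20.7 and 51.5 CPM, at a log2 fold-change of -0.32 (95% interval -0.90 to 0.25) that became -0.20 without experiment 2 and -0.01 without exposed library 2 alone. The exposed libraries of experiments 1 and 3 lay close together in all 3 genes. For the canonical subunit NFKB1 the 95% interval was -0.37 to 0.23, and for NFKBIA it was -0.43 to 0.33. These intervals leave out changes the size of those seen for RELB, TNFAIP3 or ICAM1 at 30 µg/cm2. The value of NFKBIA itself at 30 µg/cm2, 0.27, lies inside its interval, and that of NFKB1, 0.37, lies outside. A p that misses the threshold does not show that these genes did not respond.

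Compared directly with 1 µg/cm2, the higher concentration gave higher levels of 4 members: RELB, ICAM1, NFKBIZ and TNFAIP3. In this comparison 3.62% of all genes tested were called higher and 4.22% lower. Log2 fold-changes were 1.81 for RELB (edgeR, adjusted p = 0.000271), 1.33 for ICAM1 (0.00051), 1.31 for NFKBIZ (0.00455) and 1.25 for TNFAIP3 (0.0017). NFKB2, at 0.59 with an adjusted p of 0.0195 in edgeR, lay just under the fold threshold and passed it in some alternatives. Left out of the fit, library 2 of the 1 µg/cm2 cells changed the count most, to 7 members, with NFKB2 (0.76), NFKBIE (0.73) and BIRC3 (-0.66) added. Without the whole of experiment 2 there were 6, the added ones being NFKB2 (0.64) and TNFAIP2 (-1.12). BIRC3 then moved from -0.33 to -0.59, just under the fold threshold, and NFKBIA from 0.32 to 0.19. TNFAIP2 was lower at 30 than at 1 µg/cm2 in experiments 1 and 3, at log2 ratios of -1.14 and -1.05, and higher in experiment 2, at 0.38. It was called lower without exposed library 2 alone, at -0.93 (edgeR, adjusted p = 0.0132). The fit of the compared libraries alone kept RELB and ICAM1. Over all genes tested, the 1379 called became 1505 without library 2 of the 1 µg/cm2 cells, 3113 without experiment 2 and 149 with the compared libraries.

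Daily exposure to 1 µg/cm2 changed none of the 10 genes by the test in edgeR, with 0.227% of all genes called and 11.9% at an unadjusted p under 0.05. DESeq2 and the fit with the replicate block also called 0 members, the block calling 4.39% of all genes, and 2 members, NFKBIA and TNFAIP3, had an unadjusted p under 0.05. Epithelial markers summed to 2810 to 3500 CPM in 7-day control cells and 1920 to 2090 CPM after daily exposure. Of these, KRT5 (-0.93) and TP63 (-0.99) were called lower (edgeR, adjusted p = 0.0477 for both). Mesenchymal markers summed to 285 to 348 CPM against 205 to 285 CPM, with none called, and CD14 had 10.9 to 12.1 CPM against 7.11 to 9.79 CPM. The part of all these markers in what follows was not tested. The members that lay lowest relative to their control were the inhibitors NFKBIA and TNFAIP3 together with BIRC3. NFKBIA had 97.7, 86.4 and 104 CPM in 7-day control cells and 69, 60.7 and 64 CPM after daily exposure. No exposed library reached the lowest control. The log2 fold-change was -0.57 (SE 0.177; 95% interval -0.95 to -0.19), with an adjusted p of 0.2 in edgeR and of 0.00486 with the replicate block, where the size stayed under the threshold of 0.6.

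For TNFAIP3, control cells had 14.7, 13.2 and 15.8 CPM and daily exposed cells 10.6, 10.4 and 11.2 CPM, again without overlap. The log2 fold-change was -0.44 (95% interval -0.86 to -0.01; edgeR, adjusted p = 0.403), against the rise of 1.35 after 30 µg/cm2 for 24 h. BIRC3 had 49.4, 51.5 and 57.4 CPM in control cells and 39.6, 40.5 and 42.1 CPM in exposed cells, at a log2 fold-change of -0.37 (edgeR, adjusted p = 0.631). All 3 genes lay lower within each experiment, with log2 ratios from -0.70 to -0.32. Libraries of 4 members did not overlap, 3 lower and NFKB2 higher (log2 fold-change 0.20), but over all genes tested 42.9% had all 9 pairs the same way, 21.6% lower and 21.3% higher. A count of 4 of 10 is near that background.

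ICAM1, with 48.1, 46 and 45.2 CPM in control and 51.2, 45.3 and 34.7 CPM in exposed cells, showed overlapping groups after daily exposure. RELB (17.5, 16.7 and 16.1 against 19.8, 16.3 and 16.9 CPM) and NFKBIZ (7.71, 7.23 and 7.59 against 6.25, 7.39 and 9.05 CPM) overlapped as well. The 95% interval of the log2 fold-change was -0.46 to 0.29 for ICAM1, -0.38 to 0.53 for RELB and -0.51 to 0.54 for NFKBIZ, and the values found for these genes at 30 µg/cm2 lie outside them.

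**Figure D3:**
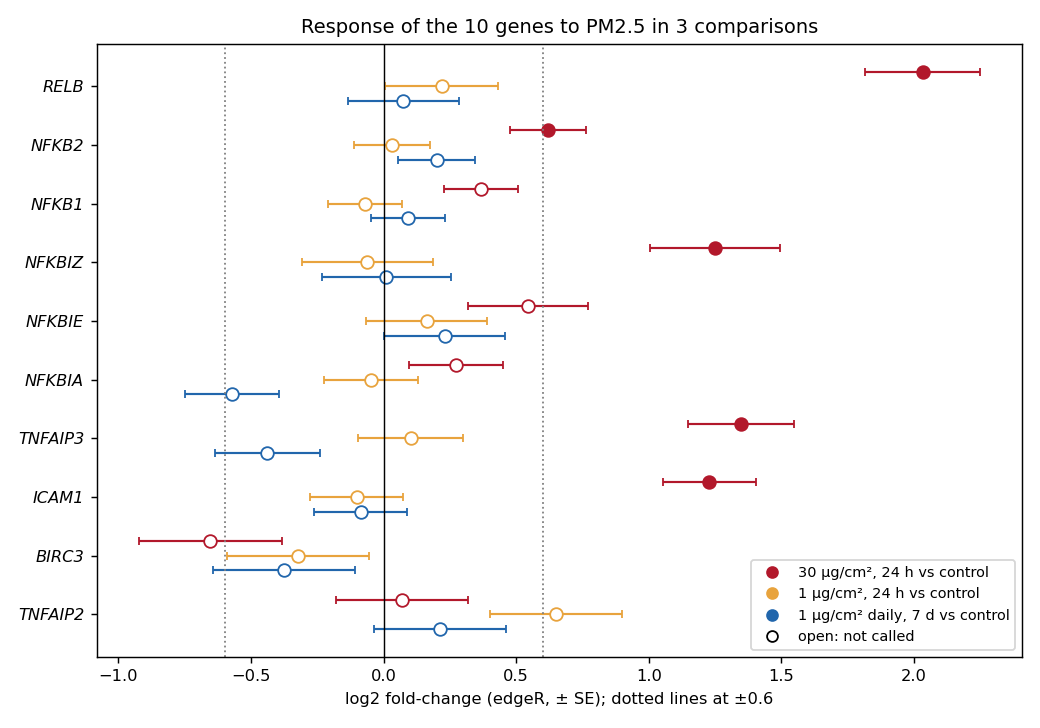
Log2 fold-change (horizontal axis, ± SE, n = 3 per group) of each gene in 3 comparisons with the control of the same protocol, filled where called and open where not, with dotted lines at ±0.6. The filled points are RELB, NFKB2, NFKBIZ, TNFAIP3 and ICAM1 at 30 µg/cm2, and no point is filled for 1 µg/cm2 given once or daily.

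Whether the response to 1 µg/cm2 differed between daily and single exposure was tested as an interaction. No member passed, and edgeR called 0% of all genes tested, with 7.07% at an unadjusted p under 0.05. DESeq2 called 62 genes and none of the 10, and 0 of the 10 had an unadjusted p under 0.05. The largest differences among the members were those of TNFAIP3, at -0.54 (95% interval -1.14 to 0.06), and NFKBIA, at -0.53 (95% interval -1.06 to 0.01). Each was toward a lower value relative to the protocol's own control under daily exposure. Mean levels after daily and single exposure were 64.6 and 51.4 CPM for NFKBIA, and 10.7 and 12.1 CPM for TNFAIP3. The matching controls had 96 and 53.1 CPM for NFKBIA, and 14.6 and 11.2 CPM for TNFAIP3. With the replicate block the adjusted p of the interaction in edgeR was 0.072 for TNFAIP3 and 0.0765 for NFKBIA.

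Control cells of both protocols differed in 3 members. NFKBIA was higher in 7-day than in 24-h control cells, by 0.86 ± 0.178 on the log2 scale (SE, n = 3; edgeR, adjusted p = 0.00289), and RELB by 0.74 ± 0.213 (adjusted p = 0.0196 in edgeR). TNFAIP2 fell by 0.99 (SE 0.252; edgeR, adjusted p = 0.00979), from 72.9 to 107 CPM down to 38.5 to 51.6 CPM. Of all genes tested, 21.9% were called in this comparison, so 3 of 10 is near the background. The RELB call was lost when control library 1 or 2 of either protocol was left out (log2 fold-change 0.62 to 0.74), and that of TNFAIP2 without 7-day control library 3 (-0.86). Time in culture, plating density and the protocol's own experiments cannot be told apart here. The level of NFKBIA after daily exposure, 60.7 to 69 CPM, thus lay between that of its own controls and that of 24-h control cells, which had 46.2 to 58.2 CPM.

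Ordered by mean level, RELB rose from 24-h control and single 1 µg/cm2 cells (10.1 and 11.8 CPM) through both 7-day conditions (16.8 and 17.7 CPM) to 41.3 CPM after 30 µg/cm2. Only the last step separated neighbouring conditions without overlap of libraries. For NFKB1, NFKBIZ, TNFAIP3 and ICAM1 too, the other 4 conditions overlapped with their neighbours and 30 µg/cm2 stood above. NFKB2 also separated at the lower end, the libraries of 7-day control cells (mean 44.4 CPM) lying below those of 24-h control cells. NFKBIE and BIRC3 had no step without overlap. NFKBIA separated at the step to 7-day control cells (96 CPM), and TNFAIP2 between the 7-day and the 24-h conditions (54.5 and 93.3 CPM).

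The wider pathway was described with 5 lists of 89 genes, of which 79 were tested. After 30 µg/cm2 for 24 h, 16 of the 79 rose and 2 fell, beside 3.82% and 4.24% of all genes tested. Their median log2 fold-change was 0.215, against 0.028 over all genes. These lists too were chosen with earlier results of these data known, so the contrast is only descriptive. The wider lists were recomputed under alternatives chosen after seeing the data. Without experiment 2, 21 were called higher and 9 lower. Without single libraries, 13 to 21 were called higher and 0 to 8 lower. With the compared libraries alone, 10 were called higher and 0 lower. Over all genes tested, the 1420 called became 3430, 794 to 2706 and 360 in the same order. None of 5 other REL and IκB genes, such as RELA (0.30; edgeR, adjusted p = 0.089), was called, although RELA and NFKBID had an unadjusted p under 0.05. Among 16 IKK and upstream kinases, IRAK2, which relays signals of IL-1 and Toll-like receptors, rose by 1.21 and MAP3K8, a kinase held by the NFKB1 precursor, fell by 0.97 on the log2 scale. Among 19 receptors and adaptors, TLR2 (1.52), TNFRSF12A, the receptor of TWEAK (1.44), IL1R1 (1.06) and TNFRSF1B (0.99) rose. Of 13 ubiquitin and feedback regulators tested, ZC3H12A, an RNase that degrades cytokine mRNA, rose by 0.76.

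Of 35 other NF-κB target genes, 26 were tested, 10 rose and PLAU fell by 0.84. The largest rises were those of PTX3, a secreted pattern recognition molecule (3.69), LCN2, an iron-chelating antimicrobial protein (3.04), the cytokine IL1A (2.64) and IER3, an early response gene (2.59). PTX3 increased from 2.21 to 7.8 CPM in control cells to 37.1 to 99.4 CPM. All of these calls had an adjusted p between 0.000151 and 0.0309 in edgeR. The list holds most of the rises, but its own median was 0.216, since 15 of its tested genes were not called. SOD2 was not matched to a row, and TNF, CSF2, CCL5, CX3CL1, VCAM1, SELE, BCL2A1, MMP9 and TNIP3 did not pass the filter on low counts.

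At 1 µg/cm2 for 24 h, 0 of the 79 wider genes were called in edgeR. An unadjusted p under 0.05 was found for 8 of the 79, 4 higher and 4 lower. That is a larger share than the 3.03% of all genes tested, in lists chosen with earlier results known. Without experiment 2, 1 was called higher and 5 lower: CXCL1, CXCL8, IL6, PTX3 and TLR4. Over all genes tested, 378 were then called, against 11 in the main fit. After daily exposure, TNFRSF12A rose by 1.12 ± 0.211 on the log2 scale (SE, n = 3; edgeR, adjusted p = 0.0477) and NUAK2, an AMPK-related kinase, fell by 0.95 (SE 0.126; edgeR, adjusted p = 0.00975). The call of TNFRSF12A was lost when any 1 of the 6 libraries was left out (adjusted p 0.123 to 0.31 in edgeR, at 0.91 to 1.24), and that of NUAK2 without 7-day control library 1 or 3 or exposed library 3. Over the 79 genes, 16 had an unadjusted p under 0.05, 12 of them higher and 4 lower, beside 11.9% of all genes tested. The replicate block called 6 of the 79 higher and 3 lower, beside 1.6% and 2.79% of all genes. The other NF-κB targets, a list chosen with earlier results known, had a median log2 fold-change of 0.385 after daily exposure, against 0.009 over all genes. In that list 12 of 26 were higher and 5 lower in all 9 pairs of libraries, beside the 21.3% and 21.6% of all genes given above.

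Between 30 and 1 µg/cm2, 15 of the 79 rose and MAP3K8 fell, led by PTX3 (4.48), CXCL8 (3.22), IER3 (2.92) and LCN2 (2.28). Without experiment 2 these counts were 22 and 8, without single libraries 9 to 23 and 0 to 8, and with the compared libraries alone 6 and 0. Over all genes tested, 3.62% were called higher and 4.22% lower. The 1379 genes called became 3113, 711 to 2715 and 149 in the same order. In 7-day against 24-h control cells, 8 of the 79 were higher and 15 lower (10 and 23 without 24-h experiment 2), LCN2 being highest (3.92) and TLR4 lowest (-2.74). Over all genes tested, 11.1% were called higher and 10.8% lower there, and the 3860 called became 5564 without 24-h experiment 2.

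Likeness among the members was measured as the Pearson correlation of a gene's log2 CPM with the mean of the other 9 over the 15 libraries, which share conditions and experiments. ICAM1 followed the others most closely (0.969), then TNFAIP3 (0.883), NFKBIZ (0.802), RELB (0.788) and NFKB1 (0.761). NFKB2 had 0.684 and NFKBIE 0.467. NFKBIA (-0.11), TNFAIP2 (0.025) and BIRC3 (-0.438) did not follow them. After centring within each experiment, NFKBIA reached 0.488, while TNFAIP2 and BIRC3 were at -0.255 and -0.512. Among all other genes tested, the 6 closest to the mean of the members were ZPR1 (0.962), IL27RA (0.945), SH3KBP1 (0.944), SPOCD1 (0.942), ABCC3 and SEL1L3 (both 0.934). Centred within experiments, they were HMGA1 (0.996), MT2A (0.995), ADAT2 (0.985), TPCN1 (0.984), TIMP1 and PDGFA (both 0.982). No gene was among the 6 closest by both measures.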

How the data were processed

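RNA was measured in 15 libraries of 5 conditions with 3 experiments each, from poly-A enriched, single-end reads. The authors aligned the reads with STAR 2.5.3 and counted them with featureCounts, and the deposited values are counts per gene, not normalized. The methods name GRCh38 and the submitters' processing notes name hg19. Of 57392 genes found in a GRCh38 annotation, 99.96% overlapped their span there, so GRCh38 was used. The strand setting of the counting is not given in the sources used here.

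Symbols were assigned to 57392 of 58219 genes. The members and the wider lists were chosen with earlier results of these data known. Counts were filtered with filterByExpr (17599 genes kept), scaled by TMM and fitted with edgeR 4.0.16 in R 4.3.3, as a quasi-likelihood model (earlier mode) with 1 mean per condition over all 15 libraries. Calls needed a Benjamini-Hochberg adjusted p-value under 0.05 over all genes tested together with a log2 fold-change of 0.6 or more in either direction. The SE was derived from the fold-change and its F statistic, and 95% intervals use the t distribution of the fit. Correlations used log2 CPM with a prior count of 2. The fit was also run on simulated counts, with the same dispersion for every gene and no difference between experiments. That check therefore does not cover an experiment that stands apart, as experiment 2 did at 24 h.

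Experiment numbers come from the labels, which the series record gives as experimental batches. Deviations from the condition means correlated at 0.201 to 0.721 between libraries of the same number at 24 h and at 0.121 to 0.181 in the repeated protocol. Different numbers gave -0.683 to 0.453 (mean -0.231) and -0.127 to -0.034 (mean -0.078). Their means are lowered by the centring itself, since deviations cancel within a condition. At 24 h the ranges overlapped, the 0.453 being between experiments 1 and 3, so the correlations alone do not establish the pairing there. The labels thus serve to pair the libraries within a protocol, and a fit with the number as a replicate block was run as an alternative. Other alternatives were RLE and upper quartile scaling, no filter, a filter at 1 CPM, the likelihood ratio test, DESeq2 1.42.0, the compared libraries alone, and leaving out each library or 24-h experiment 2. Applying them to the wider lists was chosen after seeing the data.

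Named genes are the 10 members, the called genes of each wider list (at most the 4 largest changes per list and comparison) and the 6 genes most correlated with the members by either measure. PLAU, RELA, NFKBID after 30 µg/cm2 and the labels in the plot of the wider lists lie outside that rule and were chosen after their values were seen.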

Additional observations from a re-analysis of the deposited data

How the results depend on the processing

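With 3 libraries per condition, 1 experiment that stands apart and 24-h controls shared by both concentrations, calls near the thresholds are the least firm. Counting noise is a smaller limit, since no member had under 114 counts in a library. Scaling, filters, the test, the block, the compared libraries alone and the omission of experiment 2 kept direction and side of the threshold for 499 values of single members, lost 6 calls, added 6 and reversed 9. RLE scaling, the filter at 1 CPM, the likelihood ratio test and DESeq2 changed no member call, and upper quartile scaling lost that of NFKB2 at 30 µg/cm2 (0.59).

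The replicate block called 6 members at 30 µg/cm2 in place of 5, adding BIRC3 at -0.605, changed no other member call, and turned the ICAM1 interaction to -0.009. The compared libraries alone called 3 members at 30 µg/cm2 against control and 2 against 1 µg/cm2. Without 24-h experiment 2, 1 member (TNFAIP2) was called at 1 µg/cm2, and small values reversed: TNFAIP2 at 30 µg/cm2 (-0.427); NFKB2, RELB and NFKBIE at 1 µg/cm2 (-0.089, -0.168 and -0.184), the RELB interaction (0.245), and NFKBIZ, BIRC3 and ICAM1 between the controls (-0.124, -0.152 and -0.052).

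Leaving out 1 library at a time gave 4 to 5 members at 30 µg/cm2, 4 to 7 between the concentrations and 2 to 3 between the controls. Values that changed sign ran from -0.267 to 0.217 for TNFAIP2 at 30 µg/cm2. At 1 µg/cm2 they ran from -0.171 to 0.059 for NFKB1, -0.148 to 0.139 for NFKB2, -0.137 to 0.392 for RELB, -0.183 to 0.07 for NFKBIA, -0.2 to 0.347 for NFKBIE, -0.205 to 0.075 for NFKBIZ, -0.053 to 0.236 for TNFAIP3 and -0.26 to 0.024 for ICAM1. For the interaction they ran from -0.312 to 0.219 for RELB, -0.11 to 0.439 for NFKBIE, -0.077 to 0.221 for NFKBIZ, -0.358 to 0.176 for BIRC3 and -0.112 to 0.182 for ICAM1. Between the controls the ranges were -0.128 to 0.088 for NFKBIZ, -0.157 to 0.154 for BIRC3 and -0.057 to 0.228 for ICAM1, and after daily exposure -0.016 to 0.127 for RELB, -0.14 to 0.129 for NFKBIZ and -0.216 to 0.052 for ICAM1. None of these was called in the main analysis, and the causes were not tested.

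Counts over all genes moved more than those of the members. At 30 µg/cm2, 1420 genes became 2681 with the block, 360 with the compared libraries alone and 3430 without experiment 2. Between the concentrations, 1379 became 2737, 149 and 3113 in the same order. At 1 µg/cm2, 11 became 38 without the filter, 34 with the likelihood ratio test, 39 with DESeq2, 74 with the block, 2 with the compared libraries and 378 without experiment 2. After daily exposure, 40 became 92, 194, 249, 773 and 1029 with the first 5 of these, and for the interaction 0 became 20, 13, 62, 181 and 1, and 1766 without experiment 2. Leaving out 1 library at a time gave 794 to 2706 genes at 30 µg/cm2, 711 to 2715 between the concentrations, 4 to 45 at 1 µg/cm2, 0 to 11 after daily exposure, 0 to 63 for the interaction and 2832 to 4071 between the controls, where 3860 were called with all libraries.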
